A study of Mus musculus with 11 samples.

Results

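Cdx1, Cdx2, Hnf4a, Hnf4g, Gata4, Gata5, Gata6 and Klf4 encode transcription factors that specify and maintain intestinal epithelium. Their rows were picked by gene name from the 23224 gene rows of the count table, which held all 8, and were followed in 11 mouse organoid libraries of 5 groups. Every library came from AKP colon cancer organoids, the genotype given in the labels for all groups, naive controls and SOX17 lines included. The naive group (3 libraries) had not been through a mouse. The C57Bl6 group (3) and the RAG2KO group (3) were organoids regrown from primary colon tumours that naive AKP organoids had formed after orthotopic transplantation into immunocompetent C57Bl6 or immunodeficient RAG2KO recipients, and were passaged until only cancer cells were left. The constitutive SOX17OE line (1) and the doxycycline-inducible SOX17OE line (1) were naive AKP organoids that received a SOX17 expression construct by lentivirus. The sources used here do not state whether the inducible line was given doxycycline, which promoter drove either construct, from which species its SOX17 came, whether a line was 1 clone, or the ages of the mice. Nothing in them states that replicates came from separate cultures or mice, so the p-values measure only the spread between these samples.

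CDX1 and CDX2 are caudal-type homeodomain proteins. CDX2 is the master regulator of intestinal against gastric fate, and its loss lets foregut genes appear in gut epithelium. HNF4A and its paralogue HNF4G are nuclear receptors that share binding sites and drive the enterocyte programme of brush border and lipid handling genes. Of the GATA zinc finger factors, GATA4 is best known in the proximal small intestine, GATA6 along the whole gut including colon, and GATA5 in differentiated small intestinal epithelium. KLF4 is a zinc finger protein of post-mitotic colonic epithelium that is needed for goblet cell maturation.

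Library totals ranged from 14109182 to 22154456 expected counts, and 13720 genes passed the filter on low counts, 7 of the 8 factors among them. Values are CPM, counts scaled to a common library size, here with totals adjusted by TMM (trimmed mean of M values). Epcam, the pan-epithelial adhesion molecule, lay between 843 and 1339 CPM in every library, and summed CPM of 8 epithelial markers lay between 6667 and 11958. 10 fibroblast and smooth muscle markers summed to 10.3 CPM or less. 6 endothelial markers summed to between 1.29 and 4.79 CPM except in the constitutive line, with 36.0 CPM, and the inducible line, with 7.05 CPM, where Tek led. 8 blood markers summed to between 3.72 and 14.9 CPM, led by Cd68, while Tyrobp was at 0 in all 5 groups. In bulk libraries such as these, fewer cells that express a gene and less RNA per cell cannot be told apart. Sox17 itself was at 0.214, 0.0438 and 0.0477 CPM in the naive libraries (5 counts in all), at 18.4, 12.4 and 74.4 CPM in the C57Bl6 libraries, at 22.2, 15.4 and 24.4 CPM in the RAG2KO libraries, at 72.7 CPM in the constitutive line and at 4.78 CPM in the inducible line. Both lines therefore lay above all naive libraries, as their labels say, and the inducible line lay below every tumour-derived library.

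Compared per kilobase of annotated exon, naive organoids held most RNA of Hnf4a (52.7 ± 4.81 CPM per kilobase, SD, n = 3), Cdx2 (52.4 ± 10.9) and Klf4 (42.4 ± 15.4), a trio that did not differ beyond its spread. Cdx1 (7.08 ± 2.25) and Gata6 (6.61 ± 1.58) followed and also overlapped, and Hnf4g was lower (0.833 ± 0.173). Gata4 and Gata5 were near 0, with 4 counts and 1 count in the 3 naive libraries together. RNA of Hnf4a, Cdx2 and Klf4 was thus the most abundant of the set in the starting organoids.

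**Figure D1:**
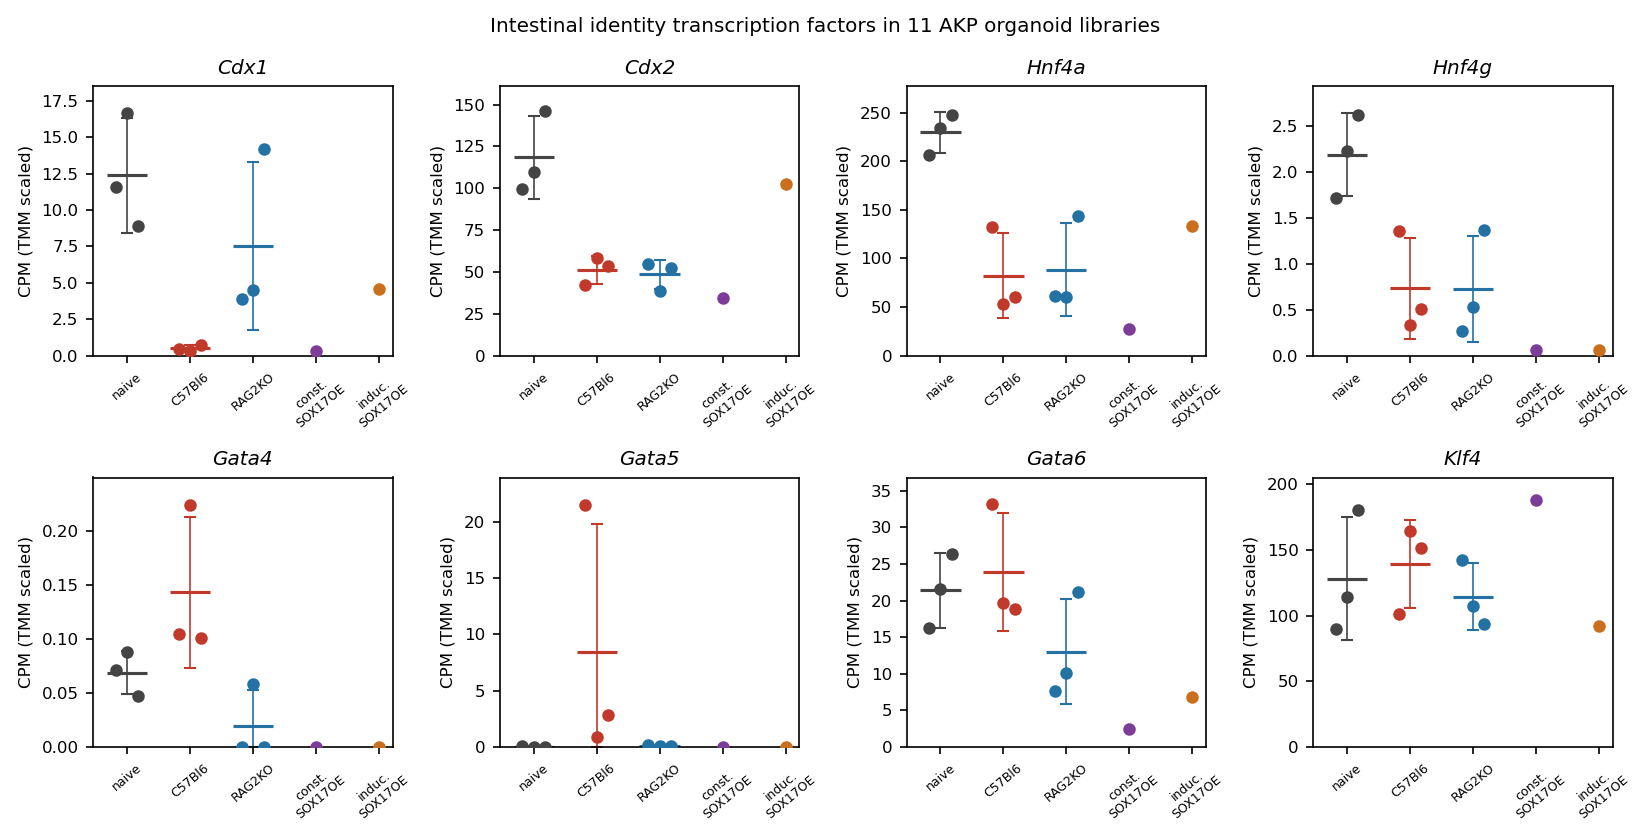
CPM on the vertical axis (linear, from 0, with a scale of its own for each gene) in each library (points), with the mean and SD of the groups of 3 (bars, cut off at 0). Cdx2 and Hnf4a were lower in all 6 tumour-derived libraries than in all 3 naive ones, Gata5 reached 21.5 CPM in 1 C57Bl6 library, and Klf4 overlapped between the groups of 3.

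Cdx2 and Hnf4a were lower in both tumour-derived groups, whereas Cdx1 was all but lost in the C57Bl6 group alone among the tumour-derived ones and Gata5 rose there from near 0. In C57Bl6 organoids 3 of the 7 factors tested fell and 1 rose against naive, where 15.3% of all genes tested were called (9.5% higher, 5.85% lower) by the quasi-likelihood test of edgeR at a Benjamini-Hochberg adjusted p under 0.05. In RAG2KO organoids 2 fell and 0 rose, where 29.2% of genes were called (16% higher, 13.3% lower). The median log2 fold change of the 7 factors was -1.21 in C57Bl6 and -0.72 in RAG2KO organoids, against medians of 0.023 and 0.022 over all genes. Gata5 is among the 7 only because of its C57Bl6 counts, so its call supports no count over the set. Of the 6 others, 3 fell in C57Bl6 and 2 in RAG2KO organoids and none rose. The 2 comparisons share the naive libraries, so their values are set side by side only.

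The start of Cdx2 is shown first, since Cdx2 was lower in every tumour-derived library and varied less there than Hnf4a. The sequences printed here run from 250 bases before to 50 bases after an annotated RefSeq start site on GRCm38.p6, and 4 of the 8 factors are printed or described. Capitals mark matches on either strand. For CDX factors the letters searched were TTTATG and also TTTATT. For HNF4 factors they were CAAAGT. For GATA factors they were AGATAA and also TGATAA. For SOX factors they were ACAATGG and also ACAATAG. No match overlapped a match of another family. Of 32851 mouse promoters of this length, 27.6%, 14.4%, 18.6% and 5.95% held a CDX, HNF4, GATA or SOX match respectively. The start of Cdx2 (chr5:147307200-147307499, minus strand) held none of these letters, which says only that they are not in this window.
Cdx2 start: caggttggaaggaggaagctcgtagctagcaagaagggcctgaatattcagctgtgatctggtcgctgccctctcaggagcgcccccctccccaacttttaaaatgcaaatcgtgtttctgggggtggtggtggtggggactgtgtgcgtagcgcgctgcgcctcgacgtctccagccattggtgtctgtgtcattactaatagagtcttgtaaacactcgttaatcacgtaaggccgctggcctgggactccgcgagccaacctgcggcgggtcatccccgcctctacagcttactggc

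Cdx2 stood at 99.3, 109.8 and 146.4 CPM in the naive libraries, at 41.9, 58.1 and 53.2 CPM in the C57Bl6 libraries and at 54.7, 38.3 and 52.5 CPM in the RAG2KO libraries. All 6 tumour-derived values lay below the lowest naive value, and the 2 tumour groups overlapped. Cdx2 fell by 1.21 in log2 terms (SE 0.20, adjusted p = 0.00317, edgeR), or 2.32-fold, in C57Bl6 organoids and fell by 1.29 (SE 0.20, adjusted p = 0.00181), or 2.44-fold, in RAG2KO organoids. The median of the 764 tested genes of chromosome 5, on which Cdx2 lies, was shifted against naive by -0.22 in C57Bl6 replicate 1, by -0.14, -0.07 and -0.13 in the RAG2KO libraries and by 0.06 and 0.08 in C57Bl6 replicates 2 and 3. C57Bl6 replicate 1, with the largest chromosome shift, held the least Cdx2 of its group (35.4% of the naive mean, against 49.1% and 44.9% in replicates 2 and 3). The RAG2KO group had the other order. There replicate 2, with the smallest shift, held the least Cdx2 (32.3%, against 46.1% and 44.3% in replicates 1 and 3). The part of the chromosome in these values was not tested.

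Cdx1, the CDX2 paralogue of crypt and colon epithelium, stood at 11.6, 16.7 and 8.91 CPM in the naive libraries and at 0.472, 0.337 and 0.758 CPM in the C57Bl6 libraries, which held 30 counts between them. In the RAG2KO libraries it stood at 3.91, 4.50 and 14.2 CPM. C57Bl6 libraries were far below all others from tumours or naive cultures, while RAG2KO replicate 3 lay within the naive range and the other RAG2KO replicates below it. Cdx1 fell by 4.54 on the log2 scale in C57Bl6 organoids (SE 0.59, adjusted p = 0.00104, edgeR), a 23.3-fold difference. In RAG2KO organoids the log2 fold change was -0.72 (95% interval -1.80 to 0.36, adjusted p = 0.287, edgeR). With 1 library left out in turn it ranged from -1.56 to -0.41 (adjusted p 0.0207 to 0.612). Among these fits it was called only without RAG2KO replicate 3.

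HNF4A is made from an upstream and a downstream start site, and the gene-level counts do not separate them, so both are shown. The upstream start (chr2:163506607-163506906, plus strand) held 1 GATA match, AGATAA, at position -52 from the start site. The downstream start (chr2:163546905-163547204, plus strand) held no match.
Hnf4a upstream start: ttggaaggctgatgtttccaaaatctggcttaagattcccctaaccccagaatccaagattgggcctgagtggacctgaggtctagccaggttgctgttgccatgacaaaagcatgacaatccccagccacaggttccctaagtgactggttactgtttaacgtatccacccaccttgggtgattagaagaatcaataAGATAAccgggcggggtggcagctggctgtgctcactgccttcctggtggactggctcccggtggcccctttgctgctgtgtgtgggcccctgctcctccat
Hnf4a downstream start: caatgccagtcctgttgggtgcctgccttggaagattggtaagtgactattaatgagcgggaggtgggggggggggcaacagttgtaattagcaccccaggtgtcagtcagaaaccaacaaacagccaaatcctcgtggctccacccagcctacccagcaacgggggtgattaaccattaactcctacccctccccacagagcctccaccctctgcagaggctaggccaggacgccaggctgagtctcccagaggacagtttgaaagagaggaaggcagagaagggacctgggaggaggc

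Hnf4a stood at 206.9, 234.1 and 248.2 CPM in the naive libraries, at 132.3, 53.1 and 60.7 CPM in the C57Bl6 libraries and at 61.0, 60.6 and 143.7 CPM in the RAG2KO libraries. Every tumour-derived value was below every naive value, but 1 library of each tumour group (C57Bl6 replicate 1 and RAG2KO replicate 3) kept more than the other 2. The coefficient of variation was 9.13% in naive, 53.3% in C57Bl6 and 54.1% in RAG2KO organoids. Hnf4a fell by 1.49 on the log2 scale in C57Bl6 (SE 0.41, adjusted p = 0.0401, edgeR) and fell by 1.38 in RAG2KO organoids (SE 0.41, adjusted p = 0.0338). These calls rest on few libraries. With 1 library left out in turn the adjusted p ranged from 0.0076 to 0.115 for C57Bl6, lost without any 1 of the naive replicates 1, 2 and 3 or of C57Bl6 replicates 2 and 3, and from 0.00796 to 0.111 for RAG2KO, lost without any 1 naive replicate or RAG2KO replicate 1 or 2.

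Hnf4g was low throughout, with 1.72, 2.24 and 2.62 CPM for naive libraries, 1.36, 0.337 and 0.505 CPM for C57Bl6 libraries and 0.270, 0.526 and 1.37 CPM for RAG2KO libraries. The 6 tumour-derived values lay below the naive ones, and the same replicates as for Hnf4a were the highest of their groups. The log2 fold changes of -1.57 (95% interval -3.04 to -0.10, adjusted p = 0.142) and -1.59 (-3.08 to -0.10, adjusted p = 0.0978) did not pass the test, with 42 and 35 counts in the 3 libraries of each group. Without RAG2KO replicate 3 the RAG2KO value was -2.43 with an adjusted p of 0.0382. With any other 1 library left out it was not called, and the adjusted p reached 0.221.

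Of Gata4, Gata5 and Gata6, only Gata5 was called in either tumour-derived group. Its start (chr2:180334630-180334929, minus strand) is shown because the gene went from 1 count in naive to 483 counts in C57Bl6 organoids, and it held no match to the motifs above.
Gata5 start: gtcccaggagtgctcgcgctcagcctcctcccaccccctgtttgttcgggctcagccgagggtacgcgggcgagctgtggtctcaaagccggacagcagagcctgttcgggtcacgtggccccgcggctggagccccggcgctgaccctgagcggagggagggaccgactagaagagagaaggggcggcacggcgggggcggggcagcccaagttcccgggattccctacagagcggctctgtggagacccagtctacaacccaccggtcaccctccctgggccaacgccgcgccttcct

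Gata5 held 1, 0 and 0 counts in the naive libraries, 410, 16 and 57 in the C57Bl6 libraries and 3, 2 and 1 in the RAG2KO libraries. In CPM the C57Bl6 values were 21.5, 0.898 and 2.88, so that C57Bl6 replicate 1 led by a wide margin, yet the lowest C57Bl6 library still exceeded every naive and RAG2KO library. The pooled C57Bl6 counts were 492-fold those of naive organoids per effective library size (95% interval 87.9 to 19481, which covers counting error only), and 112-fold without C57Bl6 replicate 1. Gata5 rose by 8.41 on the log2 scale of the edgeR fit (SE 1.55, adjusted p = 0.00653), a value that depends on the prior count. The gene was tested only through its counts in the group where it was high. It was also called with no filter on low counts, under a filter at 1 CPM it was not tested, and it passed with each library left out in turn (adjusted p 0.00223 to 0.0402). In RAG2KO organoids 6 counts against 1 gave a ratio of 7.22 (95% interval 0.876 to 332), which was not called (adjusted p = 0.405).

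Gata6, the GATA factor that naive organoids did express, was measured at 16.2, 21.5 and 26.4 CPM for naive libraries and 33.2, 19.6 and 18.8 CPM for C57Bl6 libraries, and the groups overlapped. The log2 fold change was 0.16 (95% interval -0.67 to 0.98, adjusted p = 0.821), with a chromosome 18 median of 0.23 in C57Bl6 replicate 1, the highest library. RAG2KO libraries stood at 7.68, 10.2 and 21.2 CPM, and their log2 fold change of -0.72 (-1.56 to 0.12) gave an adjusted p of 0.176. RAG2KO replicate 3 was again the highest, and without it the value was -1.26 with an adjusted p of 0.0223. With any other 1 library left out Gata6 was not called there, and the adjusted p reached 0.401. Gata4 had 1, 2 and 1 counts among naive libraries, 2, 4 and 2 among C57Bl6 libraries, 0, 1 and 0 among RAG2KO libraries and 0 in both SOX17OE lines, too few to be tested.

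Klf4 ranged widely within naive organoids, at 90.0, 114.6 and 180.3 CPM. Its levels were 101.3, 164.4 and 151.9 CPM for C57Bl6 libraries and 142.6, 107.7 and 93.4 CPM for RAG2KO libraries. The 3 groups overlapped throughout. Its log2 fold changes were 0.12 (95% interval -0.50 to 0.73, adjusted p = 0.821) and -0.16 (-0.78 to 0.45, adjusted p = 0.685). The sign flipped for C57Bl6 without naive replicate 1 (-0.11) or C57Bl6 replicate 2 (-0.02), and for RAG2KO without naive replicate 3 (0.16).

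In RAG2KO organoids the share of counts taken by Rn45s, the ribosomal RNA precursor, was 6.56% to 8.54% and did not overlap the 2.42% to 4.99% of naive organoids, so that this share and the recipient cannot be told apart. With the share as a covariate, no factor was called in RAG2KO organoids (Cdx2 -0.63, adjusted p = 0.272, and Hnf4a -2.31, adjusted p = 0.175). The C57Bl6 shares of 2.21% to 3.77% overlapped those of naive organoids. With the share as a covariate Cdx1, Cdx2 and Gata5 kept their C57Bl6 calls against naive, and Hnf4a lost its call. The C57Bl6 call of Hnf4a was also lost with no filter on low counts.

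**Figure D2:**
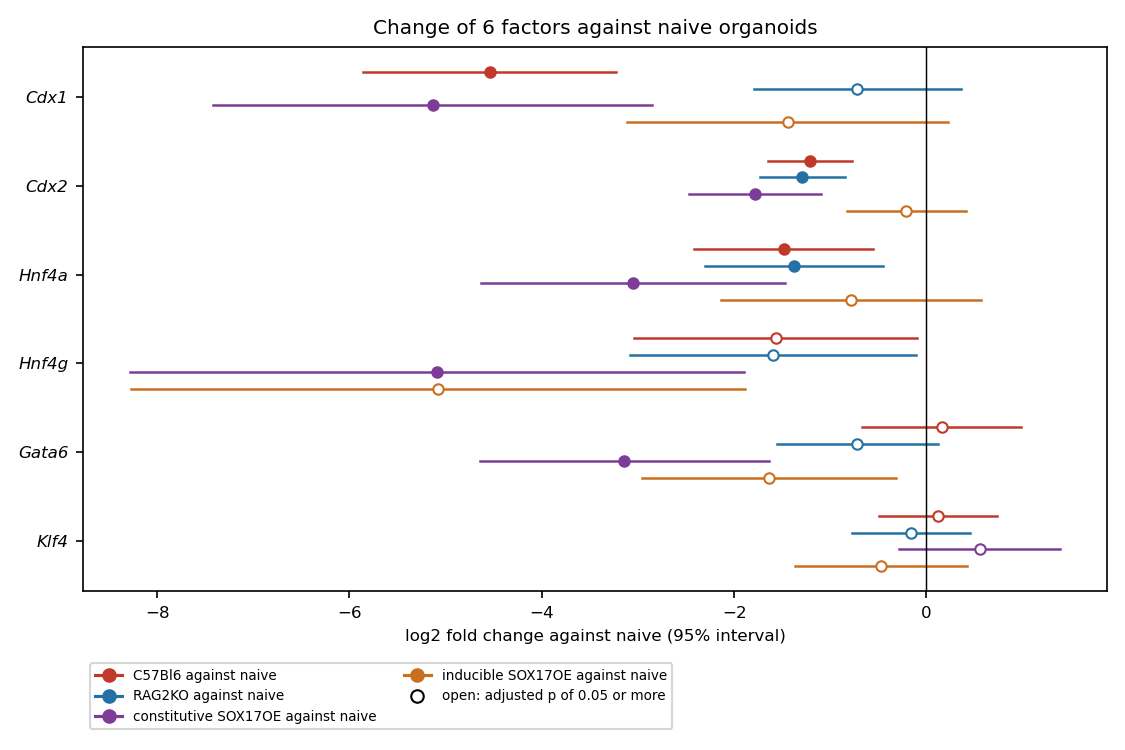
Log2 fold change against naive (horizontal axis) with its 95% interval from the edgeR fit for 6 factors (Gata4 and Gata5, with 4 counts and 1 count in naive organoids, are not drawn), by comparison (colours). Filled points passed at an adjusted p under 0.05 and open points did not. Cdx1 at -4.54 in C57Bl6 and -5.14 in the constitutive line stands apart from -0.72 in RAG2KO, the 4 Klf4 intervals include 0, and the Hnf4g values of the lines rest on 1 count each.

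The test of the tumour groups against each other asked whether the factors differed with the recipient. Cdx1 was lower in C57Bl6 than in RAG2KO organoids, with a log2 fold change of -3.82 (SE 0.58, adjusted p = 0.00354, edgeR), a 14.1-fold difference, with no overlap between the 0.337 to 0.758 CPM of the one and the 3.91 to 14.2 CPM of the other. Gata5 was higher in C57Bl6 organoids by 5.99 (SE 1.27, adjusted p = 0.0110, edgeR). The pooled count ratio was 68.1 (95% interval 31.1 to 187, which covers counting error only). Without C57Bl6 replicate 1, which held most of the counts, the ratio was 15.5, below that interval. Among the 7 factors 1 (Gata5, tested only through its C57Bl6 counts) was higher and 1 lower, where 24% of all genes were called (12.2% higher, 11.8% lower).

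Cdx2 (log2 fold change 0.08, 95% interval -0.36 to 0.51) and Hnf4a (-0.11, -1.02 to 0.81) were not called between the recipients. Nor were Hnf4g (0.02, -1.49 to 1.54), Klf4 (0.28, -0.33 to 0.89) and Gata6 (0.87, 0.03 to 1.72, adjusted p = 0.115, edgeR). Gata6 was called without RAG2KO replicate 3 (1.42, adjusted p = 0.0239) but with no other 1 library left out (adjusted p up to 0.318). The Rn45s shares of the 2 recipient groups did not overlap either. With that share as a covariate the log2 values were -2.95 for Cdx1 and 12.28 for Gata5 with adjusted p of 0.581 and 0.0585.

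In the constitutive SOX17OE line 5 of the 7 factors fell against naive and 0 rose, where 12.3% of all genes tested were called (7.23% higher, 5.04% lower). Their median log2 fold change was -3.05 against -0.0019 over all genes. In the inducible line 0 of 7 were called, where 0.656% of genes were (0.525% higher, 0.131% lower), with a median of -1.44. Unadjusted p-values under 0.05 in the inducible line were those of Hnf4g (0.00529) and Gata6 (0.0203), and DESeq2 called 1 factor there, Hnf4g (adjusted p = 0.0494). Each line is 1 library, assumed by the fit to vary like the other groups, so no line has a replicate check of its own.

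Cdx1 was at 0.346 CPM in the constitutive line, as low as in C57Bl6 organoids, and at 4.55 CPM in the inducible line, near the lower RAG2KO libraries. It fell by 5.14 on the log2 scale in the constitutive line (SE 1.02, adjusted p = 0.0126, edgeR), or 35.1-fold. Cdx2 was at 34.3 CPM in the constitutive line, below every other library, and at 102.5 CPM in the inducible line, within the naive range. It fell by 1.79 (SE 0.31, adjusted p = 0.00706) in the former, where the chromosome 5 median was -0.15. The log2 fold change in the inducible line was -0.21 (95% interval -0.83 to 0.41), with a chromosome 5 median of -0.11.

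Hnf4a was at 27.7 CPM in the constitutive line, the lowest of all 11 libraries, and at 133.4 CPM in the inducible line, below naive but level with the highest tumour-derived libraries. It fell by 3.05 in log2 terms (SE 0.70, adjusted p = 0.0246), or 8.3-fold, in the constitutive line, and the call was lost without naive replicate 2 (adjusted p = 0.0611) or 3 (0.0601). Hnf4g held 1 count in each line against 130 counts in the naive libraries. Naive organoids held 39.0-fold more per effective library size than the constitutive line (95% interval 6.88 to 1553) and 38.6-fold more than the inducible line (6.81 to 1536). Its adjusted p was 0.0455 in the constitutive line, lost without any 1 naive replicate or C57Bl6 replicate 3 (0.0585 to 0.0956), and 0.127 in the inducible line.

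Gata6 was at 2.42 CPM in the constitutive and 6.88 CPM in the inducible line, and both values lay below all 9 other libraries. It fell by 3.14 on the log2 scale in the constitutive line (SE 0.67, adjusted p = 0.0175, edgeR), or 8.83-fold. The inducible line's -1.64 (95% interval -2.96 to -0.31) had an adjusted p of 0.193. Klf4 was at 188.4 CPM in the constitutive line, the highest of all libraries, and at 92.3 CPM in the inducible line, near the bottom of the naive range. Neither value was called (0.55, 95% interval -0.29 to 1.39, and -0.48, -1.37 to 0.42). Gata5 held no count in either line, against 1 naive count, so no fold is given.

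The constitutive line's Rn45s share of 6.39% exceeded all naive shares, and its summed epithelial marker level of 6667 CPM lay below the naive range of 9787 to 11958 CPM, with 5 of 8 markers called lower. Of 6 endothelial markers 3 were tested, and all 3 were called higher in it. Over all genes 7.23% rose and 5.04% fell in that line. Cdh5, Kdr and Emcn were at 0 in every naive library, and a marker absent there could be tested only through other groups. The endothelial count is therefore a description only. The part of the Rn45s share and of the marker levels in the factor values was not tested, beyond a fit with the Rn45s share as covariate. In that fit the log2 fold changes were -5.68 for Cdx1, -1.27 for Cdx2, -3.77 for Hnf4a, -6.01 for Hnf4g and -3.42 for Gata6, so that the change was larger than without the covariate for each but Cdx2, with adjusted p between 0.0601 and 0.114, and Klf4 was higher by 1.51 (adjusted p = 0.0265). The inducible line, with 3.71% Rn45s lay inside the naive Rn45s range, and its 8088 CPM of epithelial markers lay below the naive range, with 0 of 8 called.

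The mean of both lines against naive gave 5 factors lower and 0 higher of 7, where 12.7% of genes were called (6.77% higher, 5.92% lower), with a median of -1.92 against -0.0070 over all genes. Without the constitutive line none was called (adjusted p 0.125 to 0.724 for the 5), and without the inducible line all 5 were. Without naive replicate 2 only Gata6 was called, and 3 factors were without naive replicate 3. Set against each other directly, a comparison added after the values were seen, the lines gave no called factor by edgeR, where 0.284% of genes were called (0.0802% higher, 0.204% lower). The lowest unadjusted p-values were 0.000995 for Cdx2 (log2 fold change -1.58, adjusted p = 0.109), 0.00582 for Cdx1 (-3.69) and 0.0130 for Hnf4a (-2.27), the constitutive line being lower in each, and DESeq2 called all 3.

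Gata6 also separated the SOX17OE lines from the tumour-derived organoids. The mean of the tumour-derived groups exceeded the mean of the lines by 2.11 in log2 terms (SE 0.44, adjusted p = 0.0168, edgeR), or 4.32-fold, and each of the 6 tumour-derived values (7.68 to 33.2 CPM) exceeded both lines. It was the 1 factor of 7 called higher, with 0 lower, where 11.6% of genes were called (6.73% higher, 4.9% lower), and without the constitutive line it was 1.36 with an adjusted p of 0.179. Hnf4g (3.50, 95% interval 1.26 to 5.75, adjusted p = 0.0503) was higher in all 6 tumour-derived libraries than in either line but did not pass. Gata5 (adjusted p = 0.0829) did not pass either. It was tested only through its C57Bl6 counts, and the RAG2KO libraries held 3, 2 and 1 counts against 0 in each line, too few to separate them. Cdx2 (-0.25, -0.68 to 0.17) was not called, and without the constitutive line it was lower in the tumour-derived organoids (-1.04, adjusted p = 0.0361).

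**Figure D3:**
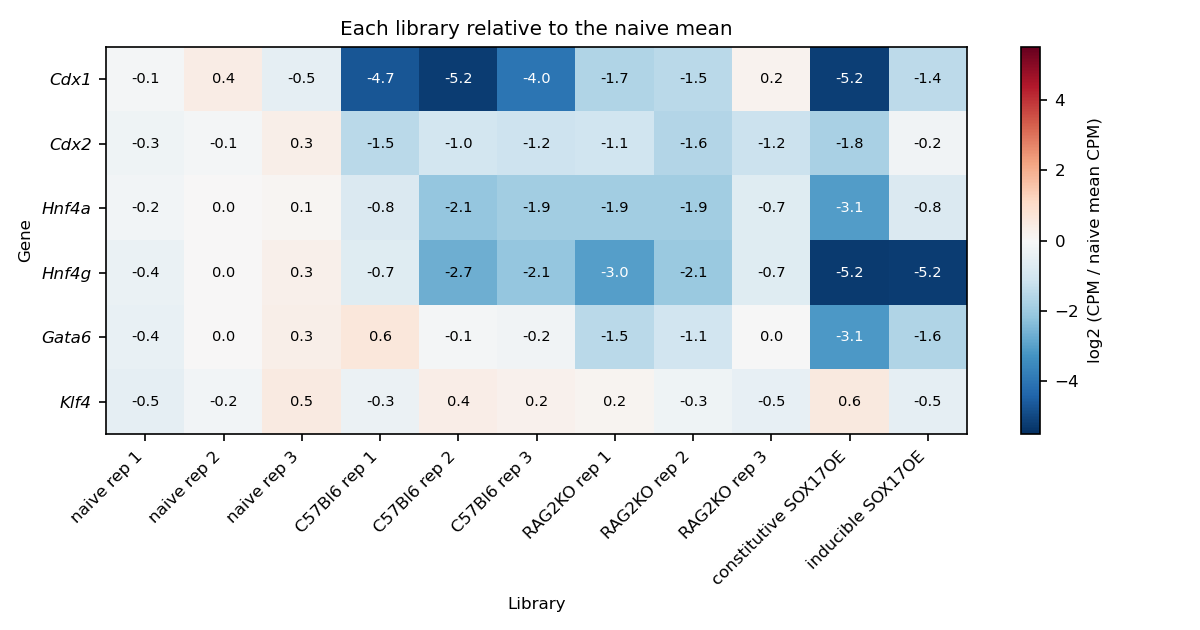
Log2 ratio of each library's CPM to the naive mean CPM (colour and printed value) for 6 factors (Gata4 and Gata5, with 4 counts and 1 count in naive organoids, are not drawn). The SOX17OE columns share the low Hnf4g (1 count each), while Cdx1, Cdx2 and Hnf4a are much lower in the constitutive than in the inducible line.

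Across the 11 libraries the factors fell into no single order. By Pearson's r of log2 CPM, Hnf4a lay closest to Cdx2 (0.80), Hnf4g (0.78) and Cdx1 (0.74), Hnf4g closest to Gata6 (0.82), and Klf4 had a negative r with each of the other 6 (-0.50 to -0.03). These are descriptions over 11 libraries of 5 groups, in which a difference between groups alone raises r.

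Among 9343 tested genes of at least 5 CPM, those most like each factor across the 11 libraries were as follows, each r being picked as the highest of that many values. Cdx1 was most like Slc17a4 (r = 0.98), a solute carrier that stood at 15.3 CPM in naive, 0.809 in C57Bl6 and 7.97 in RAG2KO organoids on average, then Ush1c (0.94), a brush border scaffold, and Akr1c12 (0.94). Hnf4a was most like Gucy2c (0.96), the guanylin receptor, Ddc (0.96), aromatic amino acid decarboxylase, and Pparg (0.95), a nuclear receptor of colonic epithelium. Cdx2 was most like Coq5, Gorasp1 and Prkaa2 (all 0.93), of which Prkaa2, a catalytic subunit of AMP-activated kinase, went from 15.8 CPM in naive to 2.61 and 1.24 CPM in C57Bl6 and RAG2KO organoids. Hnf4g was most like Mtmr11 (0.95), Mob3a and Trabd (both 0.92). Gata5 was most like Socs5 (0.99), Cpne1 (0.94) and Tnfrsf19 (0.93). It held 3 counts or fewer in every library outside the C57Bl6 group, so these r rest on the C57Bl6 libraries. Gata6 was most like Zbtb20 (0.94), Cldn7 and Snx9 (both 0.93). Klf4 had no gene as close, with Tle3 at 0.83 and Tab2 and Slc24a6 at 0.82.

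Genes known as CDX targets were mostly lower where they were called. Of the 10 tested of 15 listed in the table, 6 fell and 0 rose in C57Bl6 organoids (median log2 fold change -0.91 against 0.023 for all genes), where 5.85% of all genes fell and 9.5% rose. With each library left out in turn between 5 and 7 fell and 0 rose. Gucy2c fell from 19.2, 20.9 and 20.4 CPM in naive to 5.45, 2.81 and 4.85 CPM in C57Bl6 libraries (log2 fold change -2.20, SE 0.42, adjusted p = 0.00696, edgeR). Vil1, the villin of the microvillus core, fell by 0.83 (adjusted p = 0.00431), and Mep1a, a brush border protease, went from 63 naive counts to 0, at least 6.64-fold lower against a floor of 3 counts per library. In RAG2KO organoids 4 fell and 1 rose (median -0.42), where 13.3% of all genes fell and 16% rose. Gucy2c fell by 1.96 (adjusted p = 0.00793, edgeR) and Mep1a fell by 3.57 (adjusted p = 0.0186). A1cf, the cofactor of apolipoprotein B RNA editing, rose from 3 to 57 counts, 22.9-fold per effective library size (95% interval 7.44 to 114). With 3 naive counts, A1cf was tested only through counts outside the naive group, so its call supports no count over the list. The RAG2KO count of 4 dropped to 2 without naive replicate 1 or 3 and to 1 without naive replicate 2 or RAG2KO replicate 2, and A1cf lost its call without naive replicate 2.

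In the constitutive line 5 CDX targets fell and 1 rose (median -2.27), where 5.04% of all genes fell and 7.23% rose. With each library left out in turn between 4 and 6 fell and 1 rose. Lgals4, an intestinal galectin, stood at 1421, 1298 and 1266 CPM in the naive libraries and 86.8 CPM in the line, and fell by 3.94 in log2 terms (SE 0.38, adjusted p = 0.000447, edgeR). Gpa33, the A33 antigen and a classical CDX target, fell by 1.04 (adjusted p = 0.0105). Krt20, a keratin of differentiated colonocytes, went the other way, from 2.43, 2.28 and 5.48 CPM to 91.1 CPM (4.73, SE 0.60, adjusted p = 0.00214). None of the 10 was called in the inducible line (median -0.20), where Krt20 was at 10.7 CPM. For the mean of the lines 4 fell and 1 rose, 1 fell without naive replicate 2 or 3, and none was called without the constitutive line.

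Of 15 tested HNF4 targets of 20 listed, 2 fell and 1 rose in C57Bl6 organoids (median -0.22), and 5 fell and 1 rose in RAG2KO organoids (median -0.46). Over all genes 5.85% fell and 9.5% rose in C57Bl6 and 13.3% fell and 16% rose in RAG2KO organoids. Cldn15, the pore-forming claudin of the gut, stood at 3.29, 3.33 and 5.01 CPM in naive, 0.210, 0.168 and 0.202 CPM in C57Bl6 and 0.135, 0.467 and 0.936 CPM in RAG2KO libraries. It fell by 4.28 in C57Bl6 (SE 0.62, adjusted p = 0.00185, edgeR) and fell by 2.89 in RAG2KO organoids (SE 0.57, adjusted p = 0.00574). Cdhr5, a cadherin of the links between microvilli, fell by 2.24 (adjusted p = 0.00195) and fell by 1.34 (adjusted p = 0.0127), and Myo7b, a myosin of the same complex, fell by 1.22 in RAG2KO organoids (adjusted p = 0.00581). Apob, the scaffold of chylomicrons, went the other way in C57Bl6 libraries, from 3 counts in naive to 34, 150 and 21 counts, 69.6-fold pooled (95% interval 23.5 to 340) and 27.2-fold without C57Bl6 replicate 2. With 3 naive counts, Apob was tested only through tumour-derived counts, so its call in C57Bl6 organoids supports no count over the list. Without C57Bl6 replicate 1, 5 targets rather than 2 fell in C57Bl6 organoids. The Apob call was lost without any 1 naive replicate or C57Bl6 replicate 2, and the RAG2KO count of 5 dropped to 3 without any 1 naive replicate or RAG2KO replicate 2, while the count higher ranged from 0 to 3.

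In the constitutive line 7 of the 15 HNF4 targets fell and 0 rose (median -2.61), where 5.04% of all genes fell. Cdhr5 held 3 counts there, against 1260 in the naive libraries, which held 126-fold more (95% interval 43.1 to 612). Cdhr2, its partner in the microvillar links, fell by 4.51 in log2 terms (SE 0.91, adjusted p = 0.0151, edgeR) and Myo7b fell by 2.27 (adjusted p = 0.00703). The count was 4 without naive replicate 2 or 3. None was called in the inducible line (median -1.13). For the mean of the lines 6 fell and 0 rose, 3 without naive replicate 3 and 0 without the constitutive line.

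**Figure D4:**
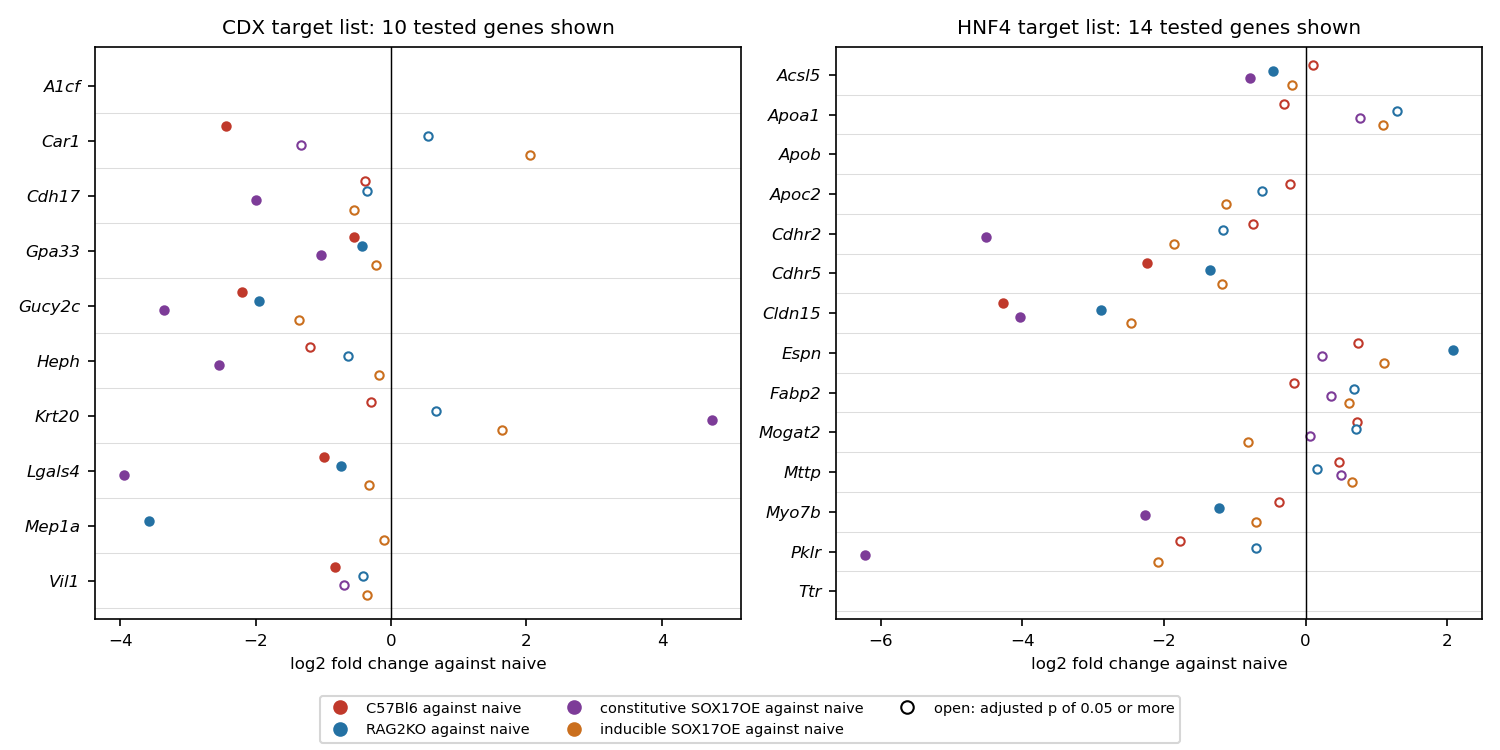
Log2 fold change against naive (horizontal axis) of tested genes of the CDX and HNF4 target lists (1 HNF4 target not shown), by comparison (colours), filled where called at an adjusted p under 0.05. Points are left out where a group held 3 counts or fewer in all, so A1cf, Apob and Ttr are empty. The 6 called C57Bl6 genes of the CDX list all lie left of 0 (Mep1a without a point), and Krt20 in the constitutive line lies at 4.73.

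Most partner factors of the intestinal endoderm were not called. Of 19 tested, 2 fell and 2 rose in C57Bl6, 3 fell and 1 rose in RAG2KO organoids, 4 fell and 0 rose in the constitutive line, and 0 were called in the inducible line, with medians of -0.27, -0.12, -0.42 and -0.64. Over all genes 5.85% fell in C57Bl6, 13.3% in RAG2KO organoids and 5.04% in the constitutive line, and 9.5%, 16% and 7.23% rose. The vitamin D receptor Vdr fell by 2.47 (adjusted p = 0.00549) and Creb3l3, a membrane-bound factor of lipid metabolism, fell by 3.86 (adjusted p = 0.00973) in C57Bl6 organoids. In RAG2KO organoids Creb3l3 fell by 4.57 (adjusted p = 0.00463), Klf5 fell by 0.94 (adjusted p = 0.0167, lost without naive replicate 3 or RAG2KO replicate 1 or 2) and the GATA cofactor Zfpm1 rose by 1.52 (adjusted p = 0.0278, lost without any 1 naive replicate or RAG2KO replicate 2 or 3). These are edgeR values. Creb3l3 held 15, 35 and 79 counts in naive, 6, 1 and 1 in C57Bl6 and 1, 2 and 1 in RAG2KO libraries. It was tested only through its naive counts, so its calls support no count over the list. The counts higher went to 0 without naive replicate 1 in both groups, to 1 without naive replicate 2 or C57Bl6 replicate 1 in C57Bl6, and to 0 without naive replicate 2 or RAG2KO replicate 2 or 3 in RAG2KO organoids, where 1 rather than 3 fell without naive replicate 3 or RAG2KO replicate 1 or 2.

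Isx, a gut homeodomain gene, held 3 counts in the constitutive line against 1207 in the naive libraries, which held 121-fold more (95% interval 41.2 to 587). Maf, a basic leucine zipper factor, held 3 counts there against 331 (33.1-fold more in naive, 11.2 to 161). Both were called lower in the edgeR fit (adjusted p of 0.0103 for Maf and 0.0249 for Isx). The inducible line held 13.5 CPM of Isx and 2.04 CPM of Maf. Isx lost its call without naive replicate 2 or 3, and the count of partner factors that fell was then 2. For the mean of the lines 6 partner factors fell and 1 rose, 2 fell without naive replicate 2, 1 without naive replicate 3 and 0 without the constitutive line.

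Gata2, a haematopoietic and endothelial GATA factor, was the 1 of 2 tested other GATA genes to change. It stood at 1.29, 2.67 and 3.91 CPM in naive, 4.56, 11.4 and 6.92 CPM in C57Bl6 and 21.0, 21.0 and 15.3 CPM in RAG2KO libraries, and at 12.4 and 7.23 CPM in the constitutive and inducible lines. All 8 of the latter exceeded every naive library. It rose by 1.51 on the log2 scale in C57Bl6 (adjusted p = 0.0338, lost without naive replicate 1 or 2 or C57Bl6 replicate 2 or 3), by 2.84 in RAG2KO (adjusted p = 0.00162) and by 2.22 in the constitutive line (adjusted p = 0.0238, lost without naive replicate 2) in the edgeR fit. It was thus highest in the recipient group in which Gata5 was not called.

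Of 12 tested other KLF genes, 1 fell in C57Bl6 (Klf12, -2.59, adjusted p = 0.0136, lost without C57Bl6 replicate 3), 3 fell in RAG2KO (Klf5, Klf6, -1.21, adjusted p = 0.0330, and Klf12, -1.66, adjusted p = 0.0448), 1 in the constitutive line (Klf5, -1.37, adjusted p = 0.0385) and none rose. Klf5 also stands among the partner factors. The medians were -0.34, -0.53 and -0.58, and -0.86 in the inducible line, where none was called. Over all genes 5.85%, 13.3% and 5.04% fell in C57Bl6, in RAG2KO organoids and in the constitutive line. The RAG2KO count went to 0 without naive replicate 3 or RAG2KO replicate 1 or 2 and to 1 without naive replicate 2, and the constitutive line's to 0 without naive replicate 2 or 3 or C57Bl6 replicate 3 and to 2 without naive replicate 1 or RAG2KO replicate 1. For the mean of the lines 4 fell, 2 without C57Bl6 replicate 3 or RAG2KO replicate 2, 1 without naive replicate 3 or the inducible line, and 0 without naive replicate 2 or the constitutive line. Klf4's own start (chr4:55532426-55532725, minus strand) held 1 CDX match, TTTATT, at position -165 from the start site. Of 8 tested genes of goblet cells, whose maturation KLF4 serves, 0 were called lower in the lines. Their median log2 fold changes were nevertheless -3.51 in the constitutive and -1.42 in the inducible line, each of 1 library. In each tumour-derived group 1 was lower (medians -0.98 in C57Bl6 and 0.09 in RAG2KO organoids), where 5.85% (C57Bl6) and 13.3% (RAG2KO) of all genes fell. It was Atoh1, the secretory lineage factor, with 48, 61 and 21 counts in naive, 0, 0 and 1 in C57Bl6 (naive 128-fold higher, 95% interval 22.5 to 5077) and 6, 3 and 11 in RAG2KO libraries (-2.47, adjusted p = 0.0259). In C57Bl6 organoids 2 goblet cell genes fell without C57Bl6 replicate 1 or RAG2KO replicate 3, and 3 without RAG2KO replicate 2. The RAG2KO call of Atoh1 was lost without naive replicate 1 or 2 or RAG2KO replicate 1 or 2.

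The foregut and gastric transcription factors, which CDX2 loss is known to release, were mostly not called. Of 8 tested, 1 rose and 0 fell in each tumour-derived group. Over all genes 9.5% rose and 5.85% fell in C57Bl6, and 16% rose and 13.3% fell in RAG2KO organoids. In RAG2KO organoids 2 factors rose without naive replicate 3 or RAG2KO replicate 1 or 3. The factor called in both groups was Onecut2, a cut homeodomain factor, at 0.929, 0.833 and 0.953 CPM in naive, 155.4, 49.5 and 83.5 CPM in C57Bl6 and 47.3, 22.5 and 50.1 CPM in RAG2KO libraries. It rose by 6.73 (SE 0.55, adjusted p = 0.000123) and by 5.46 (SE 0.54, adjusted p = 0.000308) on the log2 scale in the edgeR fit, with no overlap. The constitutive and inducible lines held 0.346 and 0.525 CPM of Onecut2. In the constitutive line 1 of the 8 fell, Pdx1, from 40 naive counts to 0, and its call was lost without any 1 naive replicate. Over all genes 5.04% fell and 7.23% rose in that line. Of the 3 SOXF genes 2 were tested. Sox17 rose by 8.54 and 7.77 in C57Bl6 and RAG2KO organoids and by 9.59 in the constitutive line, which carries a SOX17 construct. With 3, 1 and 1 naive counts, Sox17 was tested only through groups where it was high, so its calls support no count over the list. Sox7 rose by 3.20 in RAG2KO organoids (adjusted p = 0.0354, edgeR, lost without any 1 naive replicate or RAG2KO replicate 2).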

How the data were processed

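Poly(A) RNA of 11 mouse AKP organoid samples was sequenced. Per the labels' protocols, Ambion PureLink served for RNA isolation and NEBNext Ultra II Directional reagents for libraries. Per the submitters' processing notes, Bowtie and RSEM were used with mm9; versions, annotation and strand setting are not given there. The deposited table holds RSEM expected counts, which were rounded.

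Genes passing filterByExpr (13720 of 23224) were TMM-scaled. All 11 libraries in 5 groups entered 1 robust quasi-likelihood fit in edgeR 4.0.16 (R 4.3.3), two-sided, with Benjamini-Hochberg adjusted p under 0.05 as a call. Standard errors are log2 fold changes, without sign, divided by the square root of F. CPM uses TMM-scaled totals. Fits were tested on simulated counts. Replicates differed by more than counting noise. Replicate numbers shared between groups were not used as pairs in the main fit. Of 9 same-number correlations 2 exceeded 0.1, as did 6 of 18 with other numbers, which cannot show whether libraries were paired.

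The factors, gene lists and tests were chosen with earlier results of these data known. The text names the 8 factors, the first 3 called genes of each list by adjusted p in each comparison with naive (counts only for the mean of the SOX17OE lines), and the 3 genes most like each factor by Pearson's r of log2 CPM (prior count 2). Muc2 is not analysed here, and some other genes that the rule picks are not reported here, though list counts include them. Ratios with few counts in a group carry 95% intervals that cover counting error only, not the spread between libraries. Alternatives were DESeq2 1.42.0, limma 3.58.1 voom, other scalings, filters and sample sets, a replicate block, and each library left out; the Rn45s covariate and the comparison between the SOX17OE lines were added after seeing the data. Promoters are from RefSeq (GRCm38.p6), found for 4 of the 8 factors outside chromosome 18. Exon lengths are merged exons of the GENCODE basic annotation.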

Additional observations from a re-analysis of the deposited data

Results flagged for a closer look

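Each value here is an edgeR log2 difference between groups that was tested directly. Cdx1 was lower in C57Bl6 than in RAG2KO tumour-derived organoids (log2 fold change -3.82, adjusted p = 0.00354), with all 3 C57Bl6 libraries below all 3 RAG2KO libraries. Gata5 was higher in C57Bl6 than in RAG2KO tumour-derived organoids by 5.99 (adjusted p = 0.0110), again in 3 of 3 libraries, but it was tested only because its C57Bl6 counts passed the filter, and 410 of those 483 counts lay in C57Bl6 replicate 1. Gata6 was higher in the mean of the tumour-derived groups than in the mean of the SOX17OE lines by 2.11 (adjusted p = 0.0168), and all 6 tumour-derived libraries lay above both lines.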

How the results depend on the processing

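Of 1077 values of single factors under an alternative, 971 kept direction and side of the threshold, 49 lost a call, 25 gained one and 32 changed sign. Of 296 counts, 233 stayed within 1.5 times. Cdx1 and Cdx2 in C57Bl6 against naive kept their calls in all 22 alternatives each. The cause of a change was not tested unless the alternative drops samples or genes.

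Factors called, where moved, were 1 (no filter), 4 (voom) and 0 (Rn45s covariate) for RAG2KO against naive in place of 2. For C57Bl6 against RAG2KO they were 1 (1 CPM filter, in which Gata5 was not tested), 1 (voom) and 0 (Rn45s) in place of 2. For the inducible line they were 1 (DESeq2) and 2 (only the groups compared), and with the Rn45s covariate 1 for the mean of the lines (Hnf4g) and 1 for the constitutive line (Klf4, higher). For the tumour-derived groups against the lines they were 2 (library totals), 2 (no filter), 3 (DESeq2) and 2 (Rn45s). All genes called moved for the mean of the lines from 1741 to 2711 (DESeq2), 3825 (voom), 2630 (only the groups compared) and 267 (Rn45s), and for the constitutive line from 1684 to 3184 (voom), 2605 (only the groups compared) and 195 (Rn45s). They moved for the inducible line from 90 to 800 (DESeq2), 733 (voom), 443 (only the groups compared) and 34 (Rn45s), and for the tumour-derived groups against the lines from 1595 to 2417 (DESeq2) and 912 (only the groups compared). C57Bl6 against naive went from 2106 to 4086 (voom), RAG2KO against naive from 4010 to 148 and C57Bl6 against RAG2KO from 3295 to 2 (both Rn45s).

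With 1 library left out in turn, factors called ranged from 3 to 4 (C57Bl6 against naive), 1 to 5 (RAG2KO against naive), 2 to 3 (C57Bl6 against RAG2KO), 0 to 5 (mean of the lines), 3 to 5 (constitutive) and 1 to 3 (tumour-derived against lines). All genes called ranged, in the same order, from 1030 to 2328, 2041 to 4184, 1857 to 3311, 85 to 1931, 721 to 1900 and 674 to 1599, and from 12 to 147 for the inducible line.

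Signs changed only for values that were not called. For C57Bl6 against RAG2KO, Cdx2 was -0.021 and Hnf4g -0.10 with upper quartile scaling, and Hnf4g was -0.14 with voom. With the Rn45s covariate Cdx2 was -0.72, Hnf4a 0.88 and Klf4 -1.15 there, and against naive Klf4 was -0.11 in C57Bl6 and 1.03 in RAG2KO organoids and Gata5 was -2.52 in RAG2KO organoids. With library totals Klf4 was -0.013 in the mean of the lines. With 1 library left out in turn, values whose sign changed ranged, for C57Bl6 against RAG2KO, from -0.070 to 0.20 (Cdx2), -0.64 to 0.43 (Hnf4a) and -0.77 to 0.86 (Hnf4g). Against naive they ranged from -0.15 to 0.34 (Gata6 in C57Bl6), -0.11 to 0.44 (Klf4 in C57Bl6), -0.37 to 0.16 (Klf4 in RAG2KO) and -0.48 to 0.55 (Klf4 in the mean of the lines). For the tumour-derived groups against the lines they ranged from -1.19 to 2.50 (Cdx1), -1.04 to 0.53 (Cdx2), -0.65 to 1.62 (Hnf4a) and -0.58 to 0.45 (Klf4), with either end set by leaving out a SOX17OE line.

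With the replicate number as a block, 3, 2 and 2 factors were called for C57Bl6 against naive, RAG2KO against naive and C57Bl6 against RAG2KO, and 1737, 3453 and 2688 genes in all; the C57Bl6 call of Hnf4a had an adjusted p of 0.0508. The correlations of same-numbered libraries ran from -0.19 to 0.18 and those of other-numbered ones from -0.25 to 0.17. Such values cannot show whether the shared numbers pair the libraries. Depth limits Gata4, Gata5 and Hnf4g, which held few counts outside single groups, and 1 library per SOX17OE line limits both lines.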
